A study of Mus musculus with 4 samples.

Results

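The 2 layers of the embryonic ventricle wall were followed through 10 marker genes, out of 38293 genes in the deposited count table. They were taken by gene symbol: 7 mark the trabecular layer (Nppa, Nppb, Bmp10, Irx3, Cpne5, Sema3a and Slit2) and 3 mark the compact layer (Hey2, Mycn and Prdm16). The samples were ventricles of single C57BL/6 mouse embryos at stage E12.5, all from litter 6 and matched for somite number, with the atria and the valve region cut away. The cKO group held 2 embryos with both Hif1a copies floxed and 1 Nkx2-5 allele carrying Cre (Hif1alphaflox/flox/Nkx2.5Cre/+). The control group held 2 littermates with the same floxed Hif1a copies and intact Nkx2-5 (Hif1alphaflox/flox/Nkx2.5+/+), so both groups carried the floxed allele and no group carried Cre alone. Replicates are numbered 2 and 3 in each group, and where a gene has 2 values per group replicate 2 is given before replicate 3.

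The wall of the embryonic ventricle builds an inner sponge of muscle ridges, the trabeculae, and an outer compact layer that divides faster and later makes up most of the wall. Trabecular muscle makes natriuretic peptides and BMP10 and gives rise to much of the later Purkinje network. Compact muscle expresses HEY2, a repressor of the Notch-related HEY family, with MYCN and PRDM16, which act in growth and in layer identity. HIF-1 is the transcription factor that cells use under low oxygen. The comparison asks whether markers of either layer differ in ventricles whose muscle precursors had Cre acting on Hif1a, its oxygen-regulated subunit.

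None of the 10 markers passed edgeR's quasi-likelihood test between cKO and control ventricles after adjustment over all 13711 genes tested, of which 0.511% passed. At an unadjusted p under 0.05 there were 2 of 10, against 6.97% of all genes. These were Cpne5, higher in cKO as 3.39% of all genes were at that threshold, and Mycn, lower in cKO as 3.58% were. DESeq2, which called 0.7% of all genes, and limma-voom also called 0 of 10. Cpne5 came closest, with a level 1.76 times that of the controls. The other pattern lay inside the cKO group, where Nppa and Bmp10 were high in replicate 2 and low in replicate 3, on either side of both controls.

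All 10 markers passed the filter on low counts. Total expected counts, which are estimated read counts per gene, came to 9980051 for cKO replicate 2 and 19801300 for cKO replicate 3, against 8561687 for control replicate 2 and 8989184 for control replicate 3. The heart muscle genes Myl2, Myh7 and Tnnt2 stood between 2746 and 13228 CPM in every library. CPM is a gene's count scaled to the size of its library. Of the atrial markers, Sln was at most 0.202 CPM and Nr2f1 at most 3.53 CPM, while Nr2f2 stood between 17.9 and 25.1, Myl7 between 418 and 532 and Myl4 between 1709 and 2100 CPM. Xist stood at 2.13 CPM of the total count in cKO replicate 3 and Ddx3y at 101.6, so this library was from a male and was also the deepest. Xist was between 1770 and 2078 CPM in the other 3 libraries. Hif1a, counted over the whole gene and so no check of the deletion, had 716 and 663 CPM in cKO and 530 and 552 CPM in control.

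**Figure D1:**
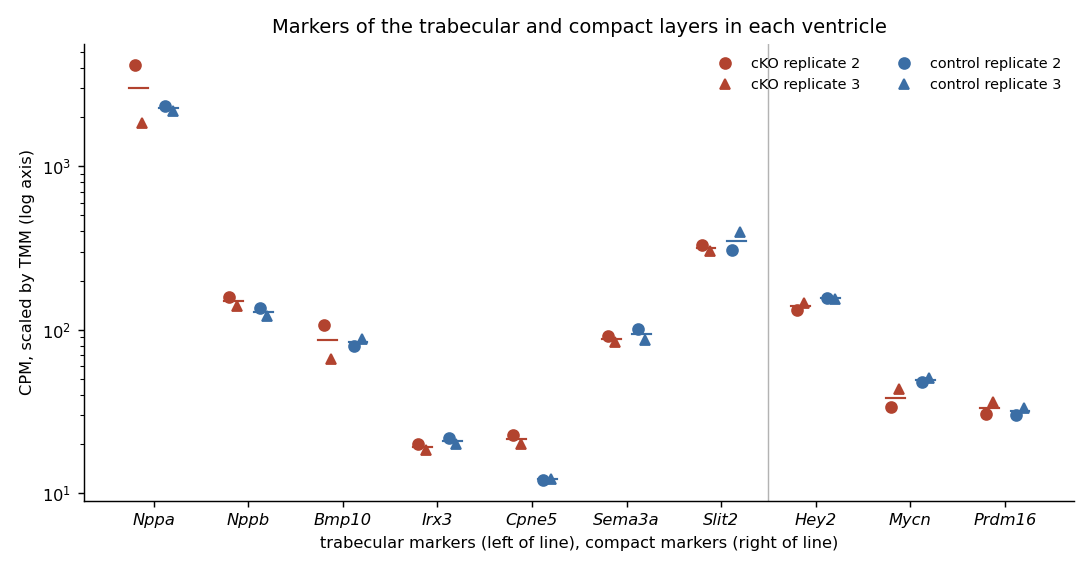
Level of each marker in each ventricle, in CPM scaled by TMM on a log axis, with cKO to the left of control, circles for replicate 2, triangles for replicate 3 and short lines for the mean of 2. Cpne5 lies at 22.8 and 20.1 CPM in cKO, above 12.1 and 12.2 CPM in control, and the cKO points of Nppa (4176 and 1847 CPM) lie on either side of the control points.

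Levels were first compared between markers per kilobase of the longest coding transcript. Nppa, the precursor of atrial natriuretic peptide, was the highest, at 3482 ± 1904 CPM per kb in cKO and 2617 ± 130 in control (SD, n = 2 each). Nppb followed at 192 ± 16.9 CPM per kb in cKO and 165 ± 12.2 in control, and then came Hey2, Slit2 and Bmp10. Irx3, Prdm16 and Cpne5 were the lowest in both groups, with Cpne5 at 3.76 ± 0.324 CPM per kb in cKO and 2.13 ± 0.0226 in control. The order was the same in both groups except for Mycn and Sema3a, which changed places. Ranges of neighbours in this order overlapped in control for Bmp10 with Mycn, and in cKO for Bmp10, Mycn and Sema3a among themselves and for Prdm16 with Cpne5.

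Nppa and Nppb encode natriuretic peptides and lie next to each other on chromosome 4, with their start sites 14.9 kb apart. Nppa (ENSMUSG00000041616, GRCm38 chromosome 4, 148000722 to 148002079, plus strand) had 4176 CPM in replicate 2 and 1847 CPM in replicate 3 of cKO, against 2343 CPM in replicate 2 and 2184 CPM in replicate 3 of control. The cKO ventricles thus held both the highest and the lowest level, and the groups overlapped. Its log2 fold change was 0.41, with a 95% interval from -0.28 to 1.11 (adjusted p = 0.820). It was 0.88 without cKO replicate 3 (adjusted p = 0.00751) and -0.29 without cKO replicate 2 (adjusted p = 0.894), so 1 library sets its direction. Nppa shares 532 exonic bases with its antisense gene Gm13054, and the files do not state a strand setting. The counts of Gm13054 were between 0.130% and 0.259% of those of Nppa.

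Nppb (ENSMUSG00000029019, chromosome 4, 147985788 to 147987205, plus strand) had 159 and 141 CPM in cKO, against 136 and 122 CPM in control. Both cKO values lay above both controls, with a gap smaller than the difference inside either group. Its log2 fold change was 0.22, with an interval from -0.0055 to 0.44 (adjusted p = 0.708). Groups did not overlap for 4 of the 10 markers, and the same held for 38.2% of all genes tested, so this share is near the background. Of the 4, 2 were higher in cKO, beside 19.4% of all genes, and 2 lower, beside 18.8%. The ratio of Nppa to Nppb was 26.2 and 13.1 in cKO and 17.3 and 17.9 in control.

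Bmp10 (ENSMUSG00000030046, chromosome 6, 87428994 to 87437677, plus strand) encodes a BMP ligand of trabecular muscle that embryonic ventricles need for growth. It had 108 and 66.6 CPM in cKO, against 80.1 and 87.3 CPM in control. As for Nppa, cKO replicate 2 was above both controls and cKO replicate 3 below both. The log2 fold change was 0.043, with an interval from -0.40 to 0.49 (adjusted p = 0.974), and it was -0.33 without cKO replicate 2 and 0.36 without cKO replicate 3.

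The 250 bases before the RefSeq start sites of these 3 genes (GRCm38.p6, plus strand) are shown because Nppa and Bmp10 split the cKO ventricles by more than the neighbouring Nppb did. The RefSeq start site of Nppb lies inside the interval given above for that gene, so its window runs into the interval. Capitals mark the motifs searched on both strands: TCACACCT (a T-box site), TNAAGTG (an element read by NKX2-5), TATAAA, and ACGTG or GCGTG (the core that HIF-1 binds, which also lies inside the E-box CACGTG).
Nppa, chr4:148000472-148000721: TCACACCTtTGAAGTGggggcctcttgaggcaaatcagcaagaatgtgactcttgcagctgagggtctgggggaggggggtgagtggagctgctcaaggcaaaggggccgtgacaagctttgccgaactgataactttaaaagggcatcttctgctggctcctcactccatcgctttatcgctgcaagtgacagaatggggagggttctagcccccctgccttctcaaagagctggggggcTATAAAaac
Nppb, chr4:147985650-147985899: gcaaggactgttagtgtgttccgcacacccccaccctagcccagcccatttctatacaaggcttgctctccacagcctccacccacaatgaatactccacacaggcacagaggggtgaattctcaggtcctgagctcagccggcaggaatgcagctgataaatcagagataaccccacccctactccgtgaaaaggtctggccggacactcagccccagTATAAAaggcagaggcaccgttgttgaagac
Bmp10, chr6:87428744-87428993: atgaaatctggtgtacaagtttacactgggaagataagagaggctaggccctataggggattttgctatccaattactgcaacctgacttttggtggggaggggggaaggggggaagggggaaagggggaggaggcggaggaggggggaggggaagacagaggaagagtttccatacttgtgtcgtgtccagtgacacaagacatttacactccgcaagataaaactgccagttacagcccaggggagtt
The Nppa window held TCACACCT starting 250 bases and TNAAGTG starting 241 bases before the start site. These letters occur in 1.12% and 10.1% of 32851 RefSeq promoter windows of the same length. The Nppa and Nppb windows each held TATAAA, found in 12.4% of windows. Of the 10 markers, 2 held TNAAGTG (Nppa and Prdm16) and 3 held TATAAA (Nppa, Nppb and Slit2). None of the searched letters was in the Bmp10 window.

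Irx3 (ENSMUSG00000031734, chromosome 8, 91798525 to 91802067, minus strand) encodes a homeobox factor of trabecular muscle and of the conduction system. It had 20.0 and 18.4 CPM in cKO, against 21.9 and 20.0 CPM in control, with overlapping groups and a log2 fold change of -0.13 (interval -0.41 to 0.15, adjusted p = 0.874). Its antisense partner Irx3os shares 124 exonic bases and held 8.20% to 14.2% as many counts, so the value of Irx3 is the less certain. Sema3a and Slit2 encode secreted guidance cues, read by neuropilin and plexin receptors and by ROBO receptors. Sema3a (ENSMUSG00000028883, chromosome 5, 13125414 to 13602565, plus strand) had 92.2 and 84.0 CPM in cKO, against 102 and 86.6 CPM in control. The groups overlapped, with a log2 fold change of -0.098 (interval -0.34 to 0.14, adjusted p = 0.883). Slit2 (ENSMUSG00000031558, chromosome 5, 47983138 to 48307733, plus strand) had 329 and 304 CPM in cKO, against 306 and 396 CPM in control. It differed more between the controls than between the groups, with a log2 fold change of -0.15 (interval -0.43 to 0.13, adjusted p = 0.847).

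Cpne5 (ENSMUSG00000024008, chromosome 17, 29155556 to 29238167, minus strand) encodes a copine, a protein that binds membrane lipids in the presence of calcium. It had 22.8 and 20.1 CPM in cKO, against 12.1 and 12.2 CPM in control. The lower cKO ventricle was at 1.65 times the higher control, and the difference between groups was larger than that inside either group. The log2 fold change was 0.81 ± 0.14 (SE), with an interval from 0.50 to 1.13, and it ranked 77 among all genes by p. It did not pass the threshold (adjusted p = 0.0571). It passed with upper-quartile scaling (adjusted p = 0.0496) and with cKO replicate 3 thinned to the depth of the others (0.0425), and over all alternatives the adjusted p lay between 0.0425 and 0.237. Its log2 fold change stayed between 0.73 and 0.90 in all of them. Cpne5 shares 146 exonic bases with AC162182.2, a gene on the opposite strand that is absent from the deposited counts. What part of the Cpne5 counts could come from AC162182.2 can therefore not be given.

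Cpne5 is on the chromosome that carries the Cre, with its start site 2.39 Mb from that of Nkx2-5. Every cKO embryo had the Cre allele and no control did. For every marker, an effect of the Cre or of the changed Nkx2-5 allele cannot be told apart from one of Hif1a loss. For Cpne5, neither can an effect of sequence linked to that allele. Of 24 tested genes with start sites within 1 Mb of that of Cpne5, 0 passed edgeR's test. Of them 17 had positive and 7 negative log2 fold changes, with a median of 0.100, and groups did not overlap for 11. Over all genes tested, 0.511% passed, 49.9% had positive log2 fold changes with a median of -0.00031, and groups did not overlap for 38.2%. The nearest tested neighbour, Ppil1, chosen like the next 2 after its values were seen, had 52.5 and 48.7 CPM in cKO and 45.2 and 40.1 CPM in control (log2 fold change 0.24, adjusted p = 0.691). Log2 fold changes above that of Cpne5 were found for 2 of the 24. Mdga1 had 10.6 and 13.2 CPM in cKO and 5.67 and 6.62 CPM in control (0.97, adjusted p = 0.153). With 1 library left out, the log2 fold change of Mdga1 lay between 0.79 and 1.10. Pi16 had 1.52 and 3.52 CPM in cKO and 1.54 and 0.772 CPM in control (1.19, adjusted p = 0.708). Nkx2-5 itself, a homeobox factor of heart muscle, had 44.3 and 42.1 CPM in cKO and 55.9 and 64.9 CPM in control (-0.49, adjusted p = 0.153).

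**Figure D2:**
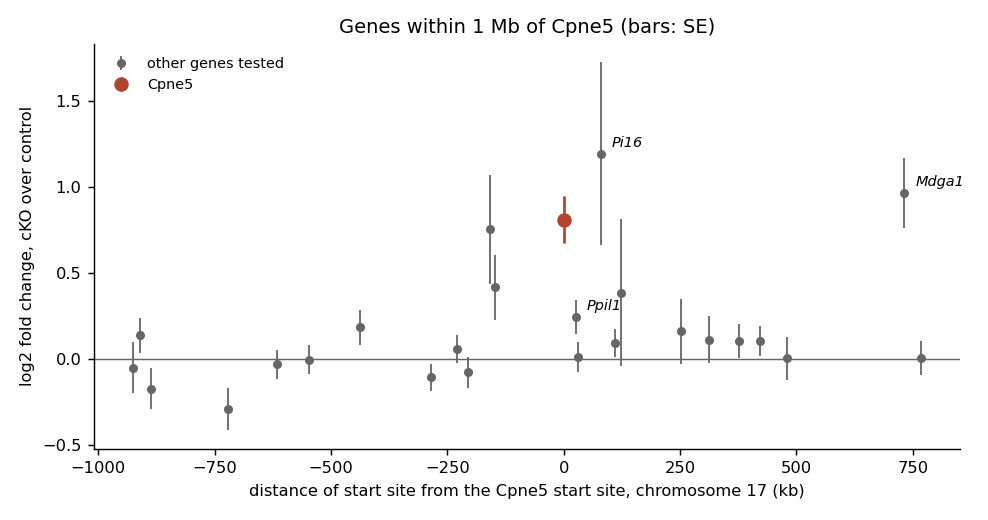
Log2 fold change (cKO over control) of Cpne5 and of the 24 tested genes within 1 Mb, against the distance of their start sites from that of Cpne5, with bars for the SE. Cpne5 stands at 0.81, most neighbours lie between -0.29 and 0.42, and Pi16 (1.19) and Mdga1 (0.97) lie above it. Trp53cor1 (0.76) lies just below Cpne5.

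The 250 bases before the RefSeq start site of Cpne5 (GRCm38.p6, minus strand) are given because Cpne5 had the smallest p of the 10. That start site lies inside the interval given above for Cpne5, and so does the whole window. The distances above run from the outer end of that interval instead. Capitals mark the same motifs as above.
Cpne5, chr17:29237791-29238040: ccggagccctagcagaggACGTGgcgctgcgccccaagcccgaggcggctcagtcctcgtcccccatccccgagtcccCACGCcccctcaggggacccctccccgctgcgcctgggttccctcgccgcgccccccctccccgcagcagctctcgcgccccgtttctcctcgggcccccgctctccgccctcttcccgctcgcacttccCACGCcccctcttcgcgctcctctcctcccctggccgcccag
ACGTG starts 232 bases before the start site, and matches to GCGTG on the other strand start 172 and 42 bases before it. Of the 10 markers 2, Cpne5 and Hey2, held either form of the core, against 38.6% of all windows, so such letters are common and their presence says nothing of binding.

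Hey2 (ENSMUSG00000019789, chromosome 10, 30832359 to 30842801, minus strand) had 132 and 147 CPM in cKO, against 157 and 154 CPM in control. Both cKO ventricles were below both controls. The log2 fold change was -0.16, with an interval from -0.35 to 0.042 (adjusted p = 0.763), whose lower end is a ratio of 0.783. Mycn (ENSMUSG00000037169, chromosome 12, 12936093 to 12941914, minus strand), a MYC-family factor of dividing muscle, had 33.8 and 43.1 CPM in cKO, against 48.0 and 50.8 CPM in control. Both cKO values were again the lower ones. The log2 fold change was -0.35, with an interval from -0.63 to -0.062 and an unadjusted p of 0.0229, and it did not pass after adjustment (adjusted p = 0.623). It was -0.19 without cKO replicate 2 (unadjusted p = 0.185) and -0.55 without cKO replicate 3, and the unadjusted p was 0.0867 without control replicate 3. Prdm16 (ENSMUSG00000039410, chromosome 4, 154316125 to 154636873, minus strand), a zinc finger factor of the compact layer, had 30.4 and 36.2 CPM in cKO, against 30.1 and 33.2 CPM in control. Its groups overlapped, and the log2 fold change was 0.083 (interval -0.18 to 0.35, adjusted p = 0.913). In bulk tissue, fewer cells of a layer and less RNA per cell cannot be told apart.

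**Figure D3:**
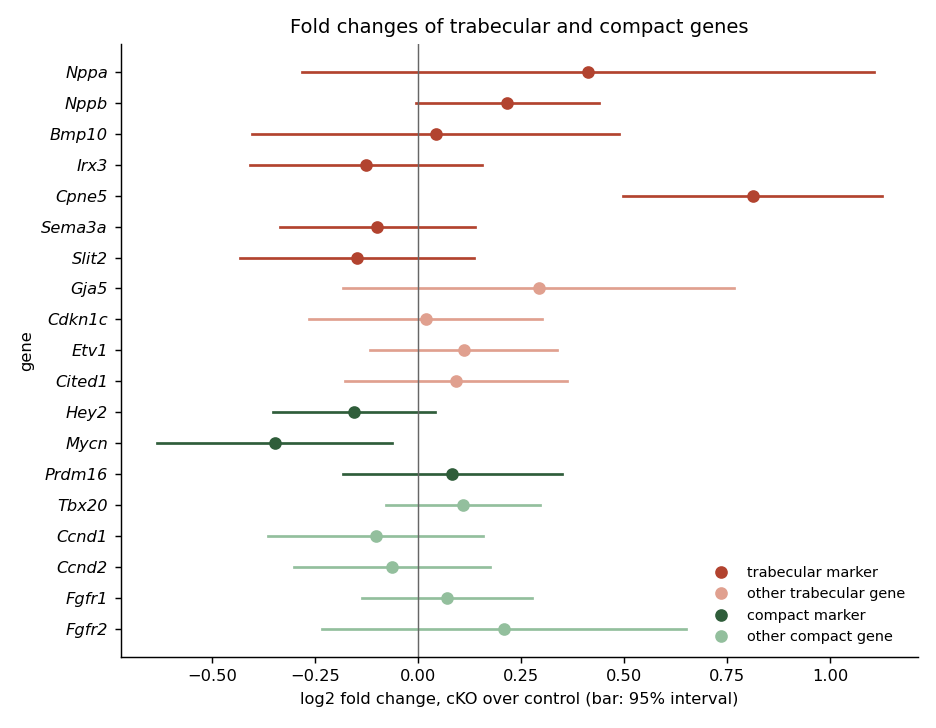
Log2 fold change (cKO over control) with its 95% interval for the 10 markers and for 9 other genes of the same layers. The intervals of Cpne5 (0.50 to 1.13) and Mycn (-0.63 to -0.062) leave out 0 before adjustment, and no gene shown passed after it.

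The median log2 fold change was 0.043 for the 7 trabecular markers (range -0.15 to 0.81) and -0.16 for the 3 compact markers (range -0.35 to 0.083), beside -0.00031 over all genes tested. Set against the mean of the controls, the trabecular median stood at 0.31 for replicate 2 of cKO and at -0.18 for replicate 3. The compact median stood at -0.23 for replicate 2 of cKO and at -0.084 for replicate 3. The summed level of the trabecular markers was 4907 and 2481 CPM in cKO and 3001 and 2907 CPM in control, and most of it was Nppa. The sum of the compact markers was 197 and 226 CPM in cKO and 236 and 238 CPM in control. The ratio of Bmp10 to Hey2, in CPM, was 0.813 and 0.454 in cKO and 0.509 and 0.568 in control.

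Ventricles of the same genotype also differed from each other. All 7 trabecular markers were lower in cKO replicate 3 than in cKO replicate 2, and all 3 compact markers were higher, under TMM, DESeq2's size factors, upper-quartile scaling and the total count alike. Of all 11186 genes with a mean of at least 5 CPM, 50.4% were lower in cKO replicate 3. The difference was larger than counting error for 5 of 7 trabecular and all 3 compact markers in the cKO pair, and for 4 of 7 and 0 of 3 in the control pair. The share of the 11186 genes beyond counting error was not computed for either pair, so nothing is read from these counts. The cKO pair also holds the deepest library, in which counting error is smaller. The log2 difference was -1.18 for Nppa and -0.69 for Bmp10 in the cKO pair, where 0.527% and 1.6% of these genes differed more. The other 5 trabecular markers lay between -0.18 and -0.11, and 26.7% to 45.6% of genes differed more than they did. The difference was 0.35 for Mycn, 0.25 for Prdm16 and 0.15 for Hey2, and 7.59%, 15.8% and 34.4% of genes differed more. Between the controls, 4 trabecular markers were lower in replicate 3 and 3 higher, with -0.10 for Nppa and 0.12 for Bmp10. Sema3a (-0.23) and Slit2 (0.37) differed more between the controls than between the cKO ventricles (-0.13 and -0.11). This is a comparison of 2 embryos of 1 genotype, with no test over embryos.

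Of 4 other trabecular genes, 3 were lower in cKO replicate 3 than in cKO replicate 2. Gja5, which encodes the gap junction protein connexin 40, had 411 and 241 CPM in cKO and 261 and 270 CPM in control. Cdkn1c, a cell cycle inhibitor, had 775 and 600.2 CPM in cKO and 687 and 671 CPM in control, and Cited1, a transcriptional coregulator, 399 and 313 CPM in cKO and 332 and 335 CPM in control. Etv1, a transcription factor, was not lower (36.6 and 38.4 CPM in cKO, 36.8 and 32.9 CPM in control). Of 5 other compact genes, 4 were higher and 1 lower in replicate 3 of either genotype. The cyclins Ccnd1 and Ccnd2 were higher in cKO replicate 3 by 0.23 and 0.16 on the log2 scale, and in control replicate 3 by 0.24 and 0.21. The growth factor receptor genes Fgfr1 (0.036) and Fgfr2 (0.11) and Tbx20 (-0.015) were within counting error in the cKO pair, and between the controls they stood at 0.099, 0.50 and -0.042.

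**Figure D4:**
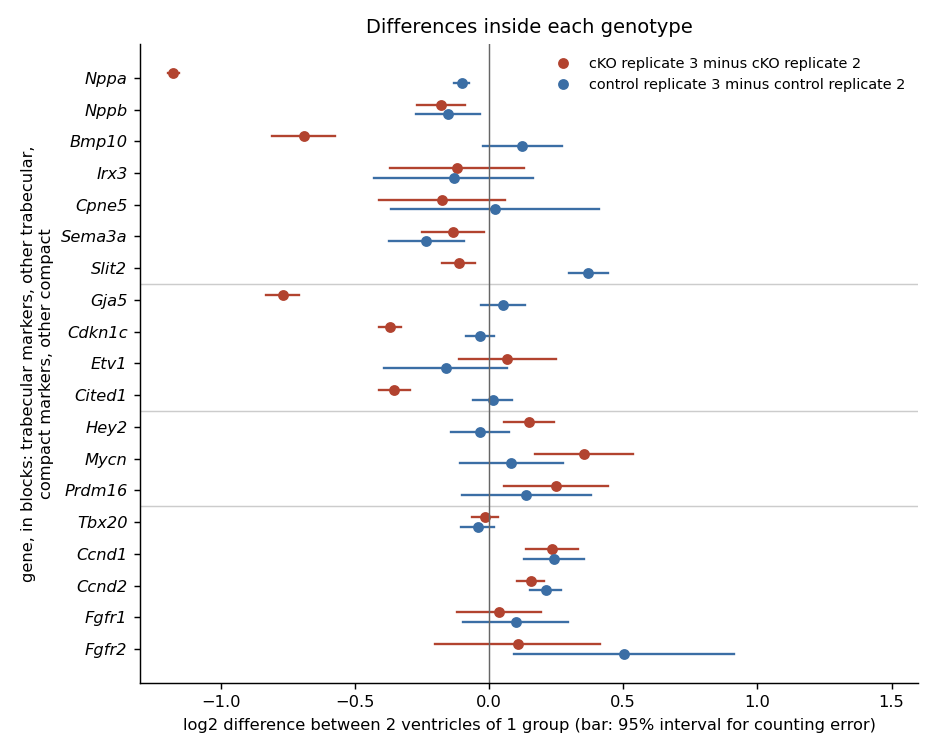
Log2 difference between replicates 3 and 2 of cKO (red, upper point) and of control (blue, lower point), with bars for the 95% interval of counting error alone. The red points of the trabecular markers all lie left of 0 (Nppa at -1.18) and those of the compact markers right of 0 (Mycn at 0.35), while the blue points lie on both sides.

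Markers of other cell types also differed between the cKO libraries, and their part in these results was not tested. The summed level of 6 erythroid markers came to 2264 CPM for replicate 2 of cKO and 5401 CPM for replicate 3, against 4313 and 4895 CPM in control. Hba-x, an embryonic globin gene, had the smallest p of these (log2 fold change -0.52, adjusted p = 0.763). That of 5 cushion mesenchyme markers was 102 and 270 CPM in cKO and 205 and 221 CPM in control. Among them the collagen gene Col2a1 had 5.46 and 36.1 CPM in cKO and 78.8 and 64.9 CPM in control (-1.67, adjusted p = 0.545). It went against the others: of 4 cushion markers tested, 3 had positive log2 fold changes and 1 a negative one, with a median of 0.32. The 6 epicardial markers summed to 328 and 240 CPM in cKO and 305 and 336 CPM in control, and among them the keratin gene Krt19 fell (25.4 and 17.9 CPM in cKO, 41.4 and 45.4 CPM in control, adjusted p = 0.0347). Krt19 lost its call when cKO replicate 3 (adjusted p = 0.0754), control replicate 2 (0.108) and control replicate 3 (0.260) were left out in turn. The 7 general heart muscle genes summed to 37038 and 35864 CPM in cKO and 39399 and 37597 CPM in control, Myh7 having the smallest p (-0.19, adjusted p = 0.733). The 6 atrial markers summed to 2554 and 2329 CPM in cKO and 2571 and 2174 CPM in control, with Sln at 0.202 and 0.151 CPM in cKO and at 0 in both controls. The potassium channel gene Kcna5, the atrial marker with the smallest p, had 1.32 and 2.36 CPM in cKO and 4.14 and 3.86 CPM in control (-1.05, adjusted p = 0.593). Sex and depth also differed between the cKO libraries, replicate 3 being male and the deeper.

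Genes that act with the markers were read from lists, and no member of these passed. All 4 other trabecular genes had positive log2 fold changes, with a median of 0.10, and Gja5 had the smallest p (0.29, adjusted p = 0.811). The log2 fold change of Gja5 was -0.14 when cKO replicate 2 was left out. With replicate 3 of cKO left out instead, Gja5 stood at 0.63 (adjusted p = 0.0652). Among 5 other compact genes 3 were positive and 2 negative, with a median of 0.069, and Tbx20, a T-box factor, had the smallest p (0.11, adjusted p = 0.820).

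Of 6 genes that process or bind natriuretic peptides, 2 were positive and 4 negative, with a median of -0.21. Npr3, the clearance receptor, had the smallest p, with 286 and 247 CPM in cKO and 310 and 324 CPM in control (-0.25, adjusted p = 0.648). Of 17 genes of BMP signalling (receptors, SMAD genes and Id genes), 5 were positive and 12 negative, with a median of -0.085. Eng, a co-receptor of endothelial cells that binds BMP10, had 148 and 160.2 CPM in cKO and 164 and 220.1 CPM in control (-0.32, adjusted p = 0.707, and -0.085 without control replicate 3). Endocardium makes both Npr3 and Eng, and all 8 endocardial and endothelial markers, Npr3 among them, had negative log2 fold changes between -0.25 and -0.11. Their sum was 1318 and 1187 CPM in cKO and 1401 and 1464 CPM in control, with the smallest p for Pecam1, an endothelial adhesion gene (-0.23, adjusted p = 0.647), and its part in the values of Npr3 and Eng was not tested.

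Of 9 receptors for semaphorins and SLITs, 5 were positive and 4 negative, with a median of 0.012, and Plxna3 had the smallest p (0.23, adjusted p = 0.687). Robo1, a SLIT receptor chosen after its values were seen, had 28.1 and 82.5 CPM in cKO and 59.6 and 52.0 CPM in control, and was called lower when cKO replicate 3 was left out (-0.99, adjusted p = 0.0188). Of 28 relatives of the markers 20 were tested, 6 positive and 14 negative, with a median of -0.099. Sema3b had the smallest p, with 12.1 ± 0.558 CPM in cKO against 17.1 ± 0.681 CPM in control (mean ± SD of 2, log2 fold change -0.50, adjusted p = 0.430). Of 16 upstream regulators, 6 were positive and 10 negative, with a median of -0.048. Nkx2-5, whose locus carries the Cre in the cKO embryos only, had the smallest p.

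Profiles over the 4 libraries were compared by the distance between centred log2 CPM values, among 11176 other genes with a mean of at least 5 CPM. The genes closest to Nppa were Dclk3, at a distance of 0.201, and Tmem163, at 0.288. Closest to Cpne5 were Gm14327, at 0.174, and a gene with no symbol, at 0.177. Neither marker had a gene within 0.1. Bmp10 had 5 such genes, led by Mst1r (0.0435) and Acap1 (0.0714), and Mycn had 14, led by Spns2 (0.039) and Sms-ps (0.0577). The other 6 markers had between 133 and 413, so their profiles were common ones among these libraries. The closest were Rasgrp2 (0.0129) and Clcn5 (0.0133) for Hey2, Tom1l1 (0.00485) and Polr3g (0.0252) for Prdm16, and R3hcc1l (0.022) and Fam160a2 (0.0222) for Irx3. They were Zfp971 (0.0154) and Ptprd (0.0203) for Sema3a, Scarb1 (0.0171) and Dab2 (0.0231) for Slit2, and a gene with no symbol (0.0168) and Rab9 (0.0215) for Nppb.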

How the data were processed

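Polyadenylated RNA from 4 single-embryo ventricles (500 ng of total RNA, single reads of 75 bases, per the labels' protocols) was measured. The deposited table holds RSEM's expected counts, 1 row per gene, as the submitters' notes and the values show. CASAVA 1.8.2, cutadapt 1.3, RSEM 1.2.3 and GRCm38 are named in the submitters' processing notes, with no annotation or settings. Between 13.9% and 16.9% of values in a library were not whole. Symbols, positions and transcript lengths came from GENCODE mouse release 21 on GRCm38, which matched 36429 of 38293 identifiers, and promoters from RefSeq.

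Expected counts were rounded, filtered with edgeR's default filter by group (minimum count 10, minimum total 15) and scaled by TMM, and the groups were compared in R 4.3.3 by the quasi-likelihood test of edgeR 4.0.16 on 2 residual degrees of freedom, with Benjamini-Hochberg adjustment over 13711 genes and a threshold of 0.05. Fold changes are cKO over control, the SE is the log2 fold change over the square root of F, and intervals are 95%. The steps were run on simulated counts as a check that they worked. No power for differences of the size reported here was derived from that run. With separate embryos of 1 litter as replicates, p-values rest on the spread between 2 embryos per group. The test moderates the spread of each gene towards that of the other genes, so part of it is borrowed.

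The members and lists were chosen with earlier results of these data known. Named were the 10 markers, Hif1a and Nkx2-5, from every other list the genes past the threshold or else the 1 with the smallest p, and for each marker the 2 closest profiles (prior count 2). Other genes were named after their values were seen, and 1 gene is not reported here. The neural markers summed to 3.24 and 5.48 CPM in cKO and 4.96 and 3.53 CPM in control, and of 4 only Elavl4 was tested (log2 fold change -0.24, adjusted p = 0.898). Alternatives were DESeq2 1.42.0, its size factors, upper-quartile scaling, limma 3.58.1 (voom), no filter, a mean of at least 5 CPM, the replicate number as a block, thinning of cKO replicate 3, and leaving out each library. Intervals between 2 libraries cover counting error only.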

Additional observations from a re-analysis of the deposited data

How the results depend on the processing

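Of the 10 markers, Nppb, Irx3, Cpne5, Hey2 and Mycn kept their direction in every alternative run. Cpne5 passed the threshold with upper-quartile scaling (0.83) and with cKO replicate 3 thinned (0.85), which gave 1 marker called in each. Bmp10 turned to -0.0084 under limma-voom, which took the trabecular median to the same -0.0084. With 1 library left out, log2 fold changes ranged from -0.29 to 0.88 for Nppa, -0.33 to 0.36 for Bmp10, 0.73 to 0.90 for Cpne5, -0.21 to 0.022 for Sema3a, -0.32 to 0.049 for Slit2 and -0.057 to 0.19 for Prdm16, and the trabecular median from -0.18 to 0.31. Single values that turned were those of Nppa (-0.29) and Bmp10 (-0.33) without cKO replicate 2, Bmp10 (-0.017) and Sema3a (0.022) without control replicate 2, Slit2 (0.049) without control replicate 3 and Prdm16 (-0.057) without cKO replicate 3. Leave-outs called 0 to 1 markers, 1 to 5 at an unadjusted p under 0.05, 0 to 1 receptors of semaphorins and SLITs, and 39 to 141 genes in all, 15 to 72 higher and 24 to 69 lower, against 70, 20 and 50. For the leave-outs, the share of all genes at an unadjusted p under 0.05 was not computed. Nothing is therefore read from the 1 to 5 markers at that threshold. Genes called higher numbered 31 with DESeq2 and 10 with the stricter filter. The stricter filter tests fewer genes; the cause of the other differences was not tested. Deviations of same-numbered libraries correlated at 0.106, and no label links a number to a batch or day, so the numbers were not taken as pairs. With the replicate block 75 genes and 0 markers were called, Cpne5 having 0.81. With 2 ventricles per group, a fit with 1 library in a group borrows its spread from the other group, and differences inside the intervals given above cannot be seen.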
